A study of Mus musculus with 6 samples.

Results

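Serine synthesis genes and genes of the ATF4 amino acid response were examined in the proximal colon of Mthfd1 gene-trap heterozygous and wild-type mice. The set holds 10 genes, Phgdh, Psat1 and Psph of serine synthesis and Asns, Atf4, Atf5, Ddit3, Trib3, Sesn2 and Chac1 of the ATF4 axis, out of 12393 genes named on the array. They were taken by gene symbol alone, and 19 probe sets carried 1 of these symbols and no other. A further 2 probe sets named Phgdh together with a second gene and are not counted among the 19. The heterozygous group (Mthfd1/+) comprised 3 mice carrying 1 gene-trap allele from BayGenomics, and the wild-type group comprised 3 mice. All 6 mice were 8 weeks old and had been on the AIN-93G control diet for 5 weeks after weaning. The proximal part of each colon was taken with all its cell types, and 1 array was hybridised per mouse. The sources used here do not give strain, sex or the position of the trap within the gene.

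Mammalian cells make serine from the glycolytic intermediate 3-phosphoglycerate by oxidation (Phgdh), transamination (Psat1) and dephosphorylation (Psph). Serine then gives up its side-chain carbon to tetrahydrofolate, and Mthfd1, a cytosolic enzyme with several activities, interconverts the folate-bound one-carbon units that result. When an amino acid is scarce or the endoplasmic reticulum is stressed, kinases phosphorylate the initiation factor eIF2alpha, general translation slows and the Atf4 message is translated more. The ATF4 protein then switches on serine synthesis, asparagine synthetase (Asns), amino acid transporters, aminoacyl-tRNA synthetases and stress regulators such as Ddit3, Trib3 and Chac1.

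ATF4 binds with C/EBP partners to a composite element whose core is searched for here as TGATGNAA on both strands, from 250 bases before to 50 bases after each annotated transcript start (RefSeq, GRCm38.p6). All 10 genes had a promoter in that table, 12 promoters in all, and 3 of the 12 held a match (25%), against 3.97% of all 32851 promoters. The matches were in Asns, Chac1 and Trib3. The set was put together around the ATF4 response, so a higher share than over all promoters follows from that choice and is not a test. The Trib3 match began at base 15 after the start, on the reverse strand. The Asns and Chac1 stretches are shown because Asns is the member that was lower in all heterozygous arrays at both of its probe sets and Chac1, with a single probe set too dim for the test, is a strongly responsive ATF4 target. Each runs 60 bases 5′ to 3′ on the gene's strand, with the matched letters in capitals, at chr6:7693210-7693269 (minus strand) for Asns and chr2:119351017-119351076 (plus strand) for Chac1. The Asns match began 23 bases before the start and read forward, and the Chac1 match began 193 bases before it and read in reverse.
Asns: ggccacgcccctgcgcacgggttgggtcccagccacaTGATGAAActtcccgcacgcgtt
Chac1: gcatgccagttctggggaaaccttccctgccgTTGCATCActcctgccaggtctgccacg
A letter match is a description of the sequence and not evidence of binding, and a promoter with no match in this window may hold an element elsewhere.

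The deposited values are linear array intensities scaled to a common level, and the medians of the 6 arrays ran from 156.85 to 168.25. Arrays correlated across probe sets as closely between genotypes (r = 0.9615 to 0.9817) as within them (0.9591 to 0.9809), which is a correlation over genes and not over replicates. All 3 probe sets of Mthfd1 had their heterozygous values below their wild-type values with no overlap, and the tested probe sets averaged 49.0% and 56.6% of wild-type; whether they lie beyond the trap is not known here. Of 13576 probe sets tested with limma, 0 (0%) had an adjusted p under 0.05 (smallest 0.054) and 5.69% an unadjusted p under 0.05. Colon markers were present in all arrays, with carbonic anhydrase Car1 between 15442.6 and 19083.6 in heterozygous and between 16365.3 and 16800.1 in wild-type arrays. Among ileal markers the spread was uneven: Apoa1 ran between 43 and 3949.1 in heterozygous and between 29.5 and 7711.8 in wild-type arrays, whereas Fabp2 ran between 9142 and 13528.8 in heterozygous and between 7713.7 and 13256.2 in wild-type arrays. In bulk tissue such as this, fewer cells of a type and less RNA per cell cannot be told apart.

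None of the 10 genes passed the test in heterozygous colon. Of the 19 probe sets, 14 from 8 genes were bright enough to be tested, which required a mean log2(intensity + 16) at or above the 40th percentile, an intensity of about 93.3. Trib3 and Chac1 had no tested probe set. Among the 14, 10 had a negative and 4 a positive log2 fold change (heterozygous minus wild-type, on log2(intensity + 16)), from -0.47 to 0.19, and limma adjusted p over all tested probe sets ran from 0.817 to 0.999. An unadjusted p under 0.05 was reached by 2 of the 14, 1 of Asns and 1 of Atf4, against 5.69% of all tested probe sets. Both carry the array maker's suffix (x_at) for probes that may also bind similar sequences. The groups did not overlap for 3 of the 14, both of Asns and 1 of Atf4, all lower in heterozygous colon (21.4%, against 5.1% of all tested probe sets in that direction). Probe sets of 1 gene share its RNA and are not independent: with the brightest probe set standing for each gene, 1 of 8 genes did not overlap, against 10.7% of all 8241 genes, and 0 of 8 had an unadjusted p under 0.05, against 5.4%. The median log2 fold change of the 8 genes was -0.12, and that of all genes tested was 0.0055.

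**Figure D1:**
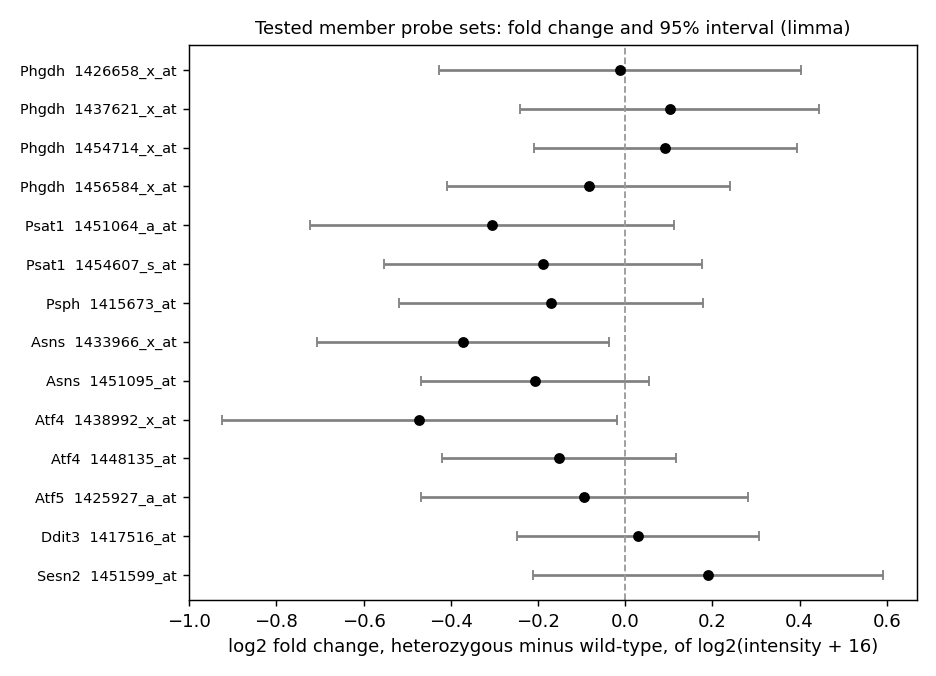
Log2 fold change of log2(intensity + 16), heterozygous minus wild-type, for the 14 tested probe sets, as points with 95% intervals from limma (3 arrays per genotype). The intervals of 1 Asns and 1 Atf4 probe set lie below 0 and the other 12 cross it, before adjustment for the 13576 probe sets tested.

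Phgdh, which commits 3-phosphoglycerate to serine synthesis, was at a like level in both genotypes. Its brightest probe set (1437621_x_at) read 430.3, 541.3 and 506.3 in the heterozygous arrays, against 545.9, 417.8 and 415.1 in the wild-type arrays. The groups overlapped, with wild-type replicate 1 highest of all. The log2 fold change was 0.10 (SE 0.15, 95% interval -0.24 to 0.45, limma adjusted p = 0.967), so a rise to 136% or a decrease to 84.6% of wild-type lies within the interval. A second probe set (1454714_x_at) had a log2 fold change of 0.092, and the remaining pair (1426658_x_at and 1456584_x_at) had -0.013 and -0.084. The 4 probe sets thus differed in sign, and none had groups that stood apart. All 4 carry the x_at suffix. The 2 further probe sets annotated with a second gene beside Phgdh had log2 fold changes of 0.21 and -0.18, and both overlapped between the groups.

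Psat1, the aminotransferase that takes the next step, had a lower mean in heterozygous colon at both probe sets without passing the test. The brighter (1451064_a_at) read 209.7, 280.9 and 307.1 in the heterozygous arrays, against 405, 308.3 and 282.9 in the wild-type arrays. Heterozygous replicate 1 was the lowest and wild-type replicate 1 the highest, and the other 4 arrays lay close together and overlapped. The means were 266 ± 50.4 in heterozygous and 332 ± 64.4 in wild-type colon (SD, n = 3 each), a log2 fold change of -0.30 (SE 0.18, 95% interval -0.72 to 0.11, limma adjusted p = 0.916). The other probe set (1454607_s_at) read 130.2, 174.2 and 157.4 in the heterozygous arrays and 193.4, 175.4 and 161.8 in the wild-type arrays. It had the same lowest and highest array, and a log2 fold change of -0.19 (limma adjusted p = 0.936).

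Psph, the phosphatase that releases serine, has 1 probe set (1415673_at). It read 153.8, 196.8 and 190.1 in the heterozygous arrays, against 185.6, 202.8 and 224.1 in the wild-type arrays. Heterozygous replicate 1 was again the lowest, and the groups overlapped, with a log2 fold change of -0.17 (SE 0.15, 95% interval -0.52 to 0.18, limma adjusted p = 0.936).

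**Figure D2:**
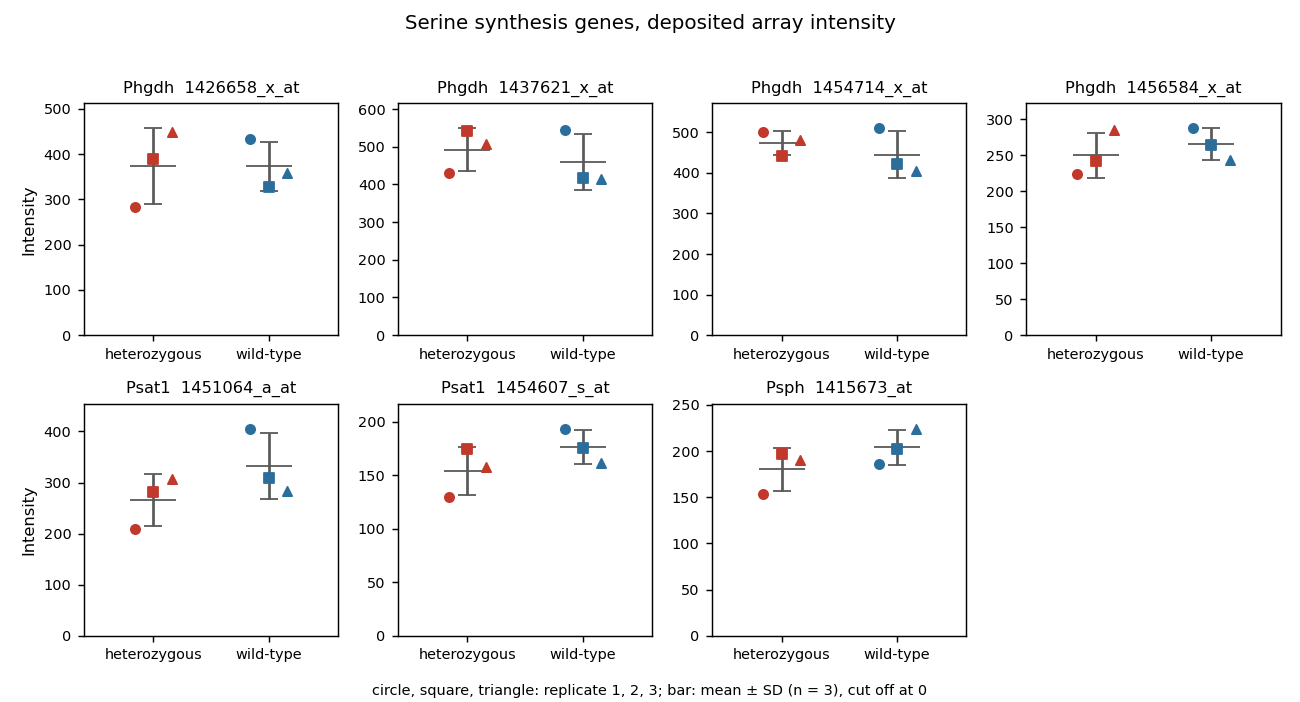
Deposited linear intensity of the 7 serine synthesis probe sets on each array, heterozygous left of wild-type; circles, squares and triangles are replicates 1, 2 and 3, and bars show mean ± SD (n = 3). Heterozygous replicate 1 is the lowest array for both Psat1 probe sets, Psph and 2 of the Phgdh probe sets, and wild-type replicate 1 is the highest for both Psat1 and 3 of the Phgdh probe sets.

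The spread of the serine genes was wider between animals of 1 genotype than between the genotypes. With each gene's log2 values centred on its own mean and averaged over Phgdh, Psat1 and Psph, the level was -0.29, 0.056 and 0.050 in heterozygous replicates 1 to 3 and 0.20, -0.0090 and -0.0065 in wild-type replicates 1 to 3. The genotype means were -0.062 in heterozygous and 0.062 in wild-type colon, with a pooled SD of 0.16 within a genotype. Of the 14 tested probe sets, heterozygous replicate 1 was the lowest array for 6 and the highest for 0. Wild-type replicate 1 was the highest for 5, all of Phgdh and Psat1, and the lowest for 1. Wild-type replicate 3 was likewise the highest for 5, and the lowest for 3. Absorptive colonocyte markers were also low in heterozygous replicate 1, at -0.27 on the same scale, but as low in wild-type replicate 3 (-0.27). Glycolytic genes were lowest in heterozygous replicate 1 too, at -0.12. The part of these differences in the serine gene levels was not tested. The genes whose values over the 6 arrays were most like the serine mean were Cenpo, a centromere protein, Lnx2, a ubiquitin ligase, and Plekhn1. Their likeness was measured by Pearson's r over 6 arrays, from 0.974 to 0.980, and 29 of 8238 genes exceeded 0.9, so the likeness is a description of these arrays.

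**Figure D3:**
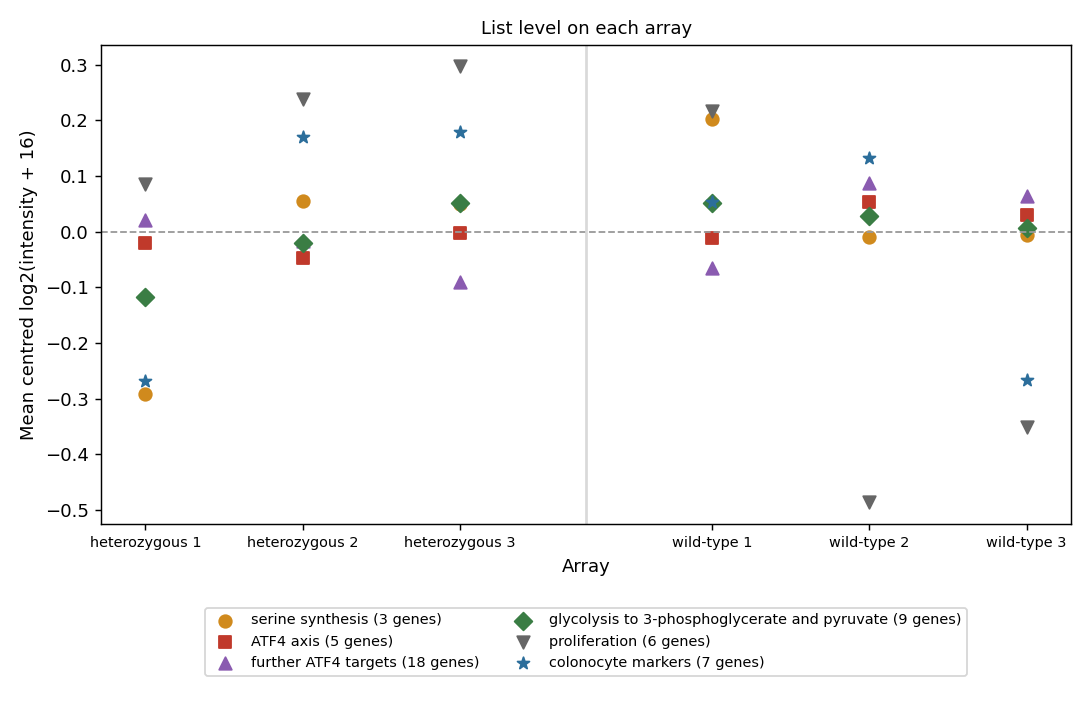
Mean of the gene-centred log2(intensity + 16) values of 6 gene lists on each array, the 3 heterozygous arrays left of the 3 wild-type arrays. The mean of the serine synthesis genes is lowest in heterozygous replicate 1 (-0.29) and highest in wild-type replicate 1 (0.20). The mean of the ATF4-axis genes stays between -0.047 and 0.052.

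Asns, which makes asparagine from aspartate and glutamine and is a standard readout of ATF4 activity, was lower in all 3 heterozygous arrays than in any wild-type array at both probe sets. The brighter (1451095_at) read 846.7, 726.2 and 794.8 in the heterozygous arrays, against 891.9, 882.5 and 962.3 in the wild-type arrays. The gap between the highest heterozygous and the lowest wild-type array was narrow. The means were 789 ± 60.4 and 912 ± 43.6 in heterozygous and wild-type colon (SD, n = 3 each), or 86.5% of wild-type. The log2 fold change was -0.21 (SE 0.12, 95% interval -0.47 to 0.055, limma adjusted p = 0.910).

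The other Asns probe set (1433966_x_at) read 404.4, 347.2 and 416.4 in the heterozygous arrays, against 538.6, 425.1 and 569.8 in the wild-type arrays. Wild-type replicate 2 lay just above the highest heterozygous array, and the other wild-type arrays were well above it. The heterozygous mean was 76.2% of wild-type, with a log2 fold change of -0.37 (SE 0.15, 95% interval -0.71 to -0.038, limma unadjusted p = 0.033, adjusted p = 0.817). Each probe set gave an exact two-sided permutation p of 0.1, the smallest that 3 against 3 arrays can give. The log2 fold change lay between -0.50 and -0.29 when each array was left out in turn, and between -0.26 and -0.15 for the brighter probe set. The unadjusted limma p of the dimmer one was 0.115 without heterozygous replicate 2, 0.093 when wild-type replicate 1 was left out and 0.104 when wild-type replicate 3 was. At both probe sets heterozygous replicate 2 was the lowest array and wild-type replicate 3 the highest.

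Asns is abundant in exocrine pancreas, so markers of that tissue were read alongside. Of 7 pancreas markers on the array, 6 had a mean too low to be tested, and they did not all lean one way. The elastase Cela2a read 1.3 to 2.2 in heterozygous and 3.2 to 30.3 in wild-type arrays, without overlap, and the trypsinogen gene Prss2 averaged 20.4 in heterozygous and 46.7 in wild-type colon, with overlap. The carboxypeptidase genes averaged 8.33 (Cpa1) and 10.9 (Cpb1) in heterozygous and 5.23 (Cpa1) and 4.33 (Cpb1) in wild-type colon, both overlapping, and Ctrb1 and Cel also overlapped. The 1 tested marker, the elastase Cela1, read 933.3, 918.1 and 854.3 in the heterozygous arrays and 1083, 951.7 and 1175.1 in the wild-type arrays, and the summed level of all 7 was 914 to 1024 in heterozygous and 1038 to 1275 in wild-type arrays. Goblet cell markers also did not overlap in sum, at 64676 to 66276 in heterozygous and 67482 to 77582 in wild-type arrays, with all 6 tested markers negative (median log2 fold change -0.074). Wild-type replicate 3, highest for Asns, was highest for the pancreas and goblet cell sums. That array was also highest for the smooth muscle (52329) and B and plasma cell sums (7324). For the ileal (9701) and adipocyte sums (10836) it was the lowest. Most of that pancreas sum is Cela1. Interferon-response genes separated the other way, with a sum of 4783 to 8389 in heterozygous and 2326 to 2850 in wild-type arrays. The sums of the other 9 marker lists overlapped between the genotypes. By gene, all 6 tested proliferation markers had a positive fold change (median log2 0.38), as did 5 of 6 macrophage and dendritic markers (median 0.24). Both tested T cell markers (median 0.79) and all 3 tested enteric neuron and glia markers (median 0.22) were positive too. Over all 8241 genes tested 4254 were positive, and none of these markers had an adjusted limma p under 0.05. Csf1r, Itgax and Cd14 of the macrophage list and Mki67 of the proliferation list were higher in every heterozygous array. Of all 8241 genes tested, 461 were. The part of these differences in the Asns values was not tested.

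Atf4 itself, the transcription factor, is read by 3 probe sets that differed in level and in how far the groups separated. The brightest (1448135_at) read 1766.8, 1386.1 and 1470.2 in the heterozygous arrays, against 1693.2, 1656.7 and 1767.2 in the wild-type arrays. Heterozygous replicate 1 lay among the wild-type arrays and the other heterozygous arrays lay below them, for a log2 fold change of -0.15 (SE 0.12, 95% interval -0.42 to 0.12, limma adjusted p = 0.928).

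The second (1438992_x_at) read 494.7, 493.8 and 302.6 in the heterozygous arrays, against 500.1, 638.7 and 639.1 in the wild-type arrays. The groups did not overlap, but heterozygous replicate 1 and wild-type replicate 1 were almost equal. The log2 fold change was -0.47 (SE 0.20, 95% interval -0.92 to -0.019, limma unadjusted p = 0.043, adjusted p = 0.859), the most negative of the 14. Leaving out heterozygous replicate 3 gave -0.25, and leaving out wild-type replicate 1 gave -0.59. The unadjusted limma p was 0.162 without heterozygous replicate 3, 0.109 when wild-type replicate 2 was left out, 0.102 when wild-type replicate 3 was, 0.051 with the replicate number as a block and 0.052 without a variance trend. The third (1439258_at) read at most 7.5 in any array and was not tested. ATF4 output is set largely by translation, which these arrays do not measure.

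Atf5, a related factor of the mitochondrial stress response, did not separate the genotypes. It read 182.5, 221.1 and 266.2 in the heterozygous arrays, against 263.8, 233.7 and 215 in the wild-type arrays. Heterozygous arrays were both the lowest and the highest, and the log2 fold change was -0.094 (SE 0.17, 95% interval -0.47 to 0.28, limma adjusted p = 0.972).

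Ddit3, which encodes the stress factor CHOP, was the steadiest member. It read 332.6, 332.5 and 349.4 in the heterozygous arrays, against 332.7, 355.5 and 306.4 in the wild-type arrays. The highest array was 1.16 times the lowest, and the heterozygous values lay inside the wild-type range. On the log2 scale heterozygous minus wild-type was 0.029 (SE 0.12, limma adjusted p = 0.988), and the 95% interval runs from 84.2% to 124% of wild-type.

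Sesn2, a stress-induced leucine sensor that restrains mTORC1, had the most positive fold changes in the set. The tested probe set (1451599_at) read 171.1, 194.9 and 154.4 in the heterozygous arrays, against 119.1, 167.6 and 166.3 in the wild-type arrays, which overlap. The log2 fold change was 0.19 (SE 0.18, 95% interval -0.21 to 0.59, limma adjusted p = 0.937). The dimmer one (1425139_at), below the filter, read 70, 58.6 and 63.7 in the heterozygous arrays, against 50.7, 37.2 and 39 in the wild-type arrays. There every heterozygous array was above every wild-type array, with a log2 fold change of 0.46 (SE 0.20; limma without the filter, unadjusted p = 0.051, adjusted p = 0.809). No detection call comes with these values, so it is not known whether that probe set is above background.

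Trib3, a pseudokinase that dampens ATF4 and AKT signalling, was dim at both probe sets. The brighter (1426065_a_at) read 51.9, 31.7 and 37.8 in the heterozygous arrays, against 54.9, 64.7 and 47.1 in the wild-type arrays, and overlapped. Without the filter its log2 fold change was -0.35 (SE 0.23, limma adjusted p = 0.866). The other (1456225_x_at) read 74.4 in wild-type replicate 2 and at most 11.7 in the remaining arrays, so its mean rests on 1 array.

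Chac1, which degrades glutathione, varied widely within both genotypes, 2.24-fold among the heterozygous and 1.86-fold among the wild-type arrays. It read 33.5, 63.8 and 75 in the heterozygous arrays, against 123.4, 69.8 and 66.3 in the wild-type arrays. As for Psat1, the lowest was heterozygous replicate 1 and the highest wild-type replicate 1, while the other 4 arrays overlapped. Without the filter the log2 fold change was -0.48 (SE 0.31, 95% interval -1.19 to 0.22, limma adjusted p = 0.864). Chac1, the brightest probe set of those below the filter, averaged 72.0 over all arrays, and the dimmest tested one, of Sesn2, averaged 162.

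**Figure D4:**
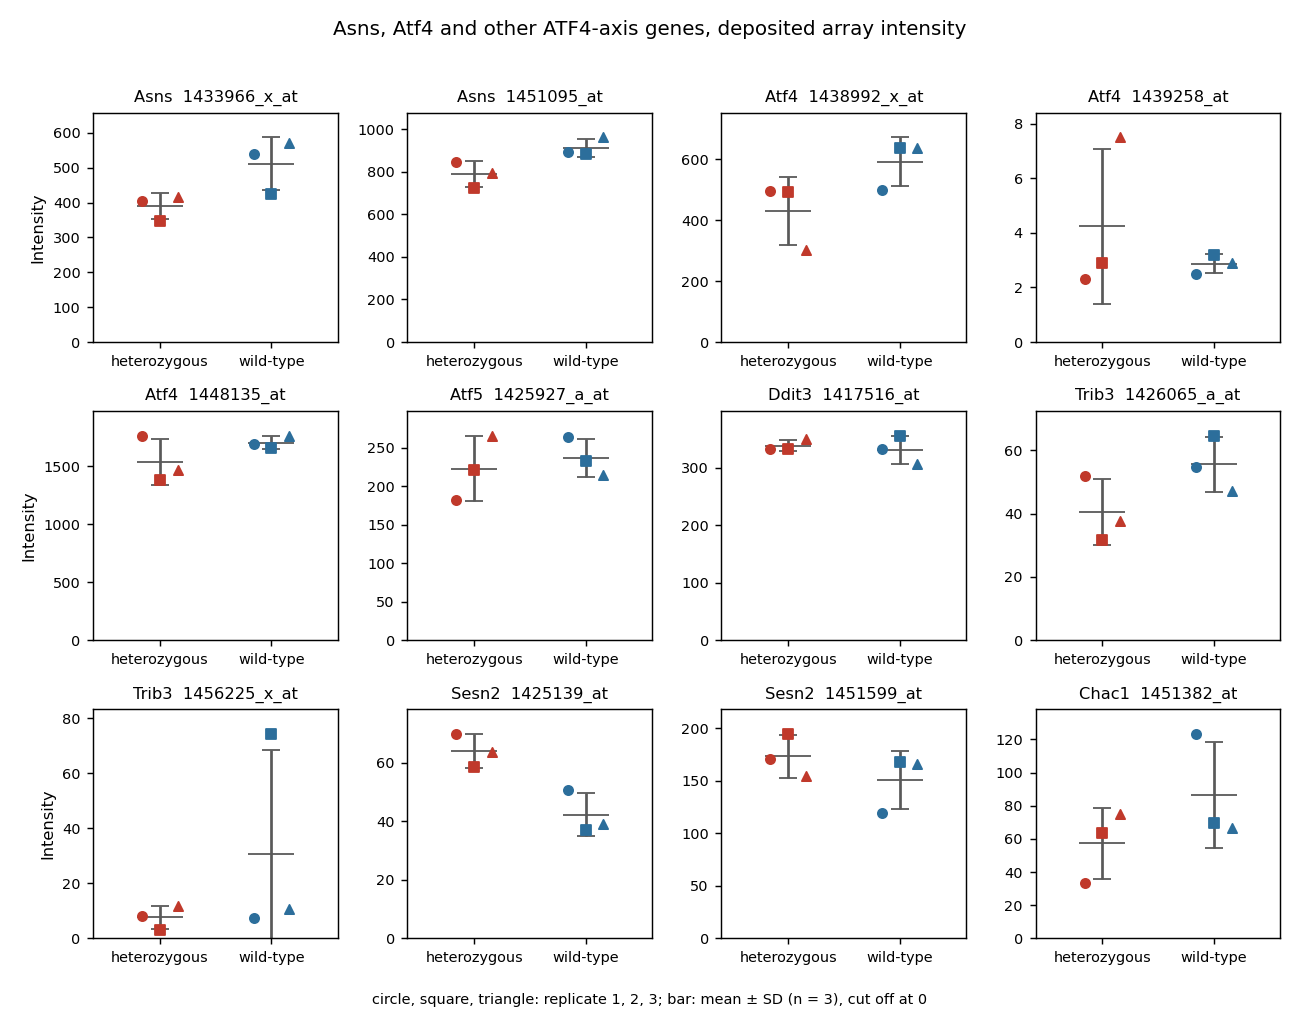
Deposited linear intensity of the 12 probe sets of Asns, Atf4, Atf5, Ddit3, Trib3, Sesn2 and Chac1 on each array, heterozygous left of wild-type; circles, squares and triangles are replicates 1, 2 and 3, and bars show mean ± SD (n = 3). Both Asns panels and the 1438992_x_at panel of Atf4 have every heterozygous point below every wild-type point, and the dim Sesn2 panel (1425139_at) has the opposite order.

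Averaged over the 5 tested genes of the ATF4 axis, the centred level stayed within a narrow range. It was -0.020, -0.047 and -0.0025 in heterozygous replicates 1 to 3 and -0.012, 0.052 and 0.030 in wild-type replicates 1 to 3. Fold changes were negative for 3 of the 5 genes and positive for 2, and their median log2 was -0.094. That near-zero mean joins opposite values of single genes, since Asns and Atf4 were negative and Sesn2 positive. The genes most like this mean over the 6 arrays, Dqx1, Elac2, which trims tRNA precursors, and Fam207a, had Pearson's r of 0.978 to 0.987, with 43 of 8236 genes above 0.9.

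Upstream of Atf4, 14 tested genes for eIF2alpha kinases and regulators of eIF2 had a median log2 fold change of 0.025, with 9 positive, 5 negative and 0 past the test. Eif2ak4, the kinase GCN2 that senses uncharged tRNA, read 103.7, 144 and 108.4 in the heterozygous arrays, against 139.8, 157.4 and 211.1 in the wild-type arrays. The groups overlapped only through heterozygous replicate 2, and the log2 fold change was -0.45 (SE 0.20, limma unadjusted p = 0.048, adjusted p = 0.873). Nck1, an adaptor that binds eIF2, had a log2 fold change of 0.48 (limma adjusted p = 0.813), and another tested probe set of it had -0.0085. Eif2ak2, the interferon-inducible kinase PKR, had 0.21 at its brighter probe set and -0.14 at the other, both overlapping between the groups.

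Further ATF4 targets gave no call either. Of 18 tested genes (19 of the list were on the array) 13 were negative and 5 positive, with a median log2 fold change of -0.078 and 0 past the test. Over all 8241 genes tested, 3987 were negative. Cebpg, a C/EBP protein that pairs with ATF4, read 1326.5, 1397.8 and 1508.9 in the heterozygous arrays, against 1083.7, 1264.3 and 1183.9 in the wild-type arrays. All heterozygous arrays were above all wild-type arrays there (log2 0.26, SE 0.11, limma adjusted p = 0.873), whereas its other tested probe set had -0.11 with overlapping groups. Eif4ebp1, a translation repressor, had -0.24 and Ddit4, an mTORC1 inhibitor, 0.35, both with overlapping groups. Mthfd2, the mitochondrial one-carbon enzyme that ATF4 induces, averaged 164 in heterozygous and 171 in wild-type colon, a log2 fold change of -0.051; it was singled out after its values were seen.

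Of 10 listed amino acid transporters on the array, 6 were bright enough to be tested, and no gene of the Slc7 family was among them. The tested ones were mostly negative, 5 of 6 (against 3987 of all 8241), with a median log2 fold change of -0.075 and 0 past the test. Slc38a2, a neutral amino acid transporter induced by amino acid shortage, was the exception. It read 2781.4, 2411.3 and 2642 in the heterozygous arrays, against 1677, 2490.7 and 2146.8 in the wild-type arrays, overlapping through wild-type replicate 2 (log2 0.33, SE 0.15, limma adjusted p = 0.874). The glutamine and serine carriers Slc1a5 and Slc1a4 had -0.23 and -0.28 at their brightest probe sets. Other tested probe sets of Slc1a4 had -0.011 and -0.16.

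Aminoacyl-tRNA synthetases, which charge tRNAs and many of which ATF4 induces, divided evenly. Of 18 tested genes 10 were positive and 8 negative at their brightest probe sets, the median was 0.012 and 0 passed the test. In 4 of the 18 the groups did not overlap, against 10.7% of all 8241 genes tested. Kars and Farsb were higher in all heterozygous arrays, and Lars and Sars lower. Farsb had a log2 fold change of 0.16 and Lars and Sars each had -0.13 (limma adjusted p from 0.916 to 0.936), and another probe set of Sars had 0.085 with every heterozygous array above every wild-type array. Farsb, Lars, Sars and Qars were picked with their values known. Kars, for lysine, averaged 1022 ± 58.8 in heterozygous and 843 ± 40.5 in wild-type colon (SD, n = 3 each; log2 0.27, limma adjusted p = 0.827). Hars had a log2 fold change of -0.19, with -0.0075 at another probe set, and Vars 0.21.

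Genes that consume serine or glycine had a median log2 fold change of 0.018 over 10 tested genes (12 of the list were on the array), 5 in each direction and 0 past the test. Sptlc2, a subunit of the enzyme that joins serine to palmitate in sphingolipid synthesis, read 1160.6, 1301.3 and 1566.8 in the heterozygous arrays, against 908.3, 1075.1 and 817.5 in the wild-type arrays. Every heterozygous array was above every wild-type array (log2 0.52, SE 0.15, limma adjusted p = 0.661). Cbs, which condenses serine with homocysteine, was lower in every heterozygous array (log2 -0.29, limma adjusted p = 0.859), and its other probe set had -0.24 with overlapping groups. Ptdss1, which exchanges serine into phospholipid, had 0.17.

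Glycolytic genes, of steps before and after 3-phosphoglycerate, were negative for 8 of 9 tested genes, against 3987 of all 8241. The values were small, from -0.17 to 0.039 (log2) with a median of -0.060 and 0 past the test. Hk1 had -0.17 and, at a second probe set, 0.045. Tpi1 had -0.087 and Pkm, which acts after 3-phosphoglycerate, had -0.074, all with overlapping groups.

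**Figure D5:**
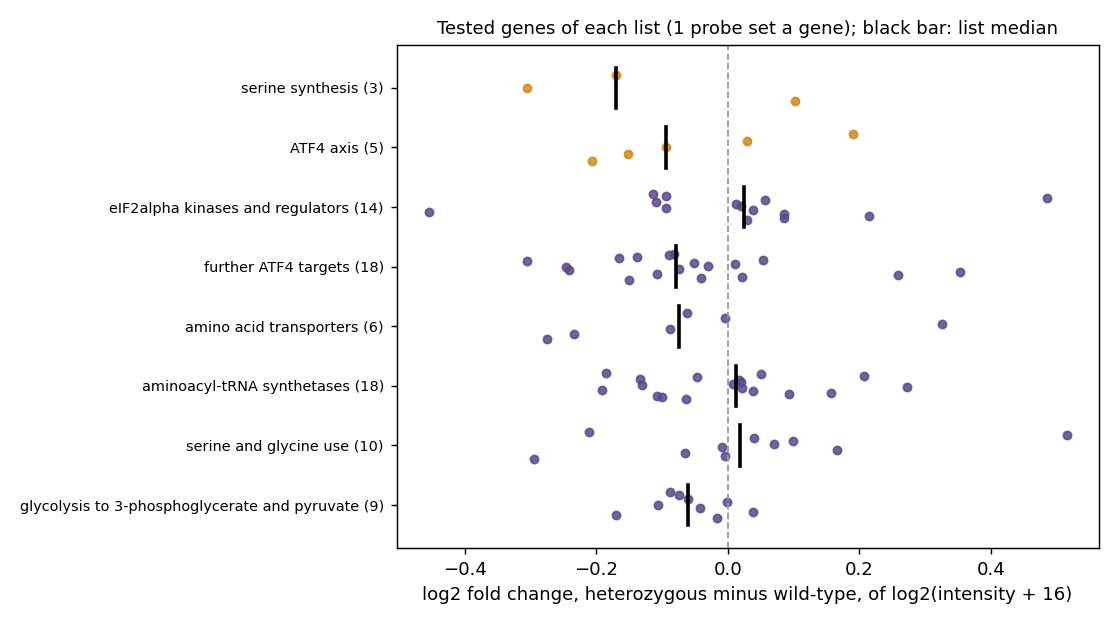
Log2 fold change of log2(intensity + 16), heterozygous minus wild-type, of each tested gene (1 point, brightest probe set) in the serine synthesis list, the ATF4-axis list and 6 related lists; black bars mark list medians and numbers in brackets count tested genes. The medians lie between -0.17 for serine synthesis and 0.025 for eIF2alpha kinases and regulators, and 0 genes passed the limma test.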

How the data were processed

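Total RNA was amplified and labelled with biotin, per the labels' protocols, and hybridised to Affymetrix mouse expression arrays. The authors deposited 1 linear intensity per probe set and array, made with GCOS per the submitters' processing notes (neither its version nor its settings stand in the sources used here). On every array the mean without the top and bottom 2% of probe sets was about 500.2, so arrays were used as deposited. No detection calls were used.

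Of 22690 probe sets, 64 controls were left out. Platform symbols were single for 20380, several for 691 and none for 1555, and updating through gene numbers altered 0. Genotypes were compared in limma 3.58.1 (R 4.3.3) on log2(intensity + 16), which understates folds of dim genes, with a variance trend and Benjamini-Hochberg adjustment over 13576 probe sets at or above the 40th percentile of mean, threshold 0.05. A gene's brightest probe set stood for it. The fit was also run on simulated data with known folds and independent noise for each probe set. That run does not measure how small a change these arrays could show. Members and lists were chosen with earlier results of these data known. Named genes are all 10 members, the 3 with the smallest p in each wider list, and the 3 most correlated with each member mean, with Mthfd1. Marker genes, Mthfd2, Farsb, Lars, Sars and Qars are named outside that rule, after their values were seen. Replicates are separate samples by title, and 3 per genotype limit precision. Same-numbered arrays did not pair (deviation correlations -0.12, 0.49 and 0.04). Alternatives varied scaling, pseudocount, filter, variance model, array weights, a replicate block and single arrays left out.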

Additional observations from a re-analysis of the deposited data

How the results depend on the processing

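No member probe set passed in any of the 219 alternative values over 14 probe sets (limma adjusted p from 0.598 to 0.9998), and 214 kept their direction. Leaving out an array turned the direction of Phgdh 1426658_x_at (-0.15 to 0.17), Atf5 (-0.22 to 0.034) and Ddit3 (-0.024 to 0.079), and array weights turned Phgdh 1426658_x_at to 0.024. The log2 median of the ATF4 axis was -0.15 both without a filter, which adds Trib3 and Chac1, and with a 60th percentile filter, which drops dim genes, and -0.13 to 0.034 with an array left out, the positive value without heterozygous replicate 1. That of all members ranged from -0.17 to -0.017 with an array left out (-0.017 without heterozygous replicate 1), and that of serine synthesis from -0.23 to -0.068. Over all probe sets, the count past the threshold was 8 with robust variance, 4 with array weights, and 0 to 39 with an array left out (39 without heterozygous replicate 1). The count with an unadjusted p under 0.05 was 1395 without a filter, 443 at the 60th percentile, and 439 to 1038 with an array left out (439 without heterozygous replicate 3), with fewer or more probe sets tested in the filter settings. With the replicate number as a block, a pairing that the arrays did not show, it was 921, 0 passed adjusted and no member's direction changed. The causes of the other shifts were not tested.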
